A study of Mus musculus with 3 samples.

Results

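Glycogen synthesis and breakdown enzymes were followed in mouse skeletal muscle as 9 genes taken by their symbol: the phosphorylase gene Pygm, the phosphorylase kinase subunit genes Phka1, Phkb and Phkg1, the synthase gene Gys1, the glycogenin gene Gyg, the branching enzyme gene Gbe1, and Ppp1r3a and Ppp1r3c, which encode targeting subunits of protein phosphatase 1. Each of the 9 had 1 row among the 24481 gene rows of the deposited tables. All 9 lay past the level minimum that 7857 rows reached. A wider list of 36 glycogen-related genes was read beside them.

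The muscle came from outbred ICR mice aged 42 days. The labels name 3 groups with 1 library each: exercise with SQH, exercise control, and control. The study's title refers to extracts of leaves of the dwarf bamboo Sasa quelpaertensis, whereas the labels give the treatment only as SQH. They do not state which muscle was sampled, how many mice went into a library, their sex, the exercise protocol, the SQH dose or the time of sampling. With 1 library per group there is no replicate error and no p-value for any difference, and an animal or library effect cannot be told apart from a group effect.

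Muscle stores glucose as glycogen and uses it as fuel during contraction. Glycogenin starts each particle, glycogen synthase lengthens the chains and the branching enzyme adds branch points. Phosphorylase releases glucose 1-phosphate from the chain ends. Phosphorylase kinase switches phosphorylase on in response to calcium and adrenaline signalling. Its alpha and beta subunits are regulatory, gamma is catalytic and delta senses calcium. Targeting subunits bring protein phosphatase 1 to glycogen, where it activates the synthase and switches phosphorylase off. These are background facts on the proteins, and the values that follow are messenger RNA levels.

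Levels are the deposited log2 values, in which 1 unit is 2-fold. Reads come from the 3' end of a transcript, so levels of different genes were set side by side without a correction for length. Other differences between genes in how reads are captured or assigned were not measured. Low values were spaced in steps of about 1 read, from which the libraries held about 12.4 M reads with exercise and SQH, 8.12 M in the exercise control and 10.8 M in the control. The ± beside a difference is the standard error of counting reads alone. A gene was called higher or lower at a difference of 1 or more (2-fold) if the 3 libraries averaged at least 66.5 for it on the linear scale. All 9 muscle marker genes, among them Acta1, Ckm and Des, lay past that minimum, and their summed level was 20.20 with exercise and SQH, 19.99 in the exercise control and 20.11 in the control.

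The exercise control library stood apart from both others in fibre-type and nerve transcripts. Of 13 slow-fibre genes, 12 were called lower there than in the control (median difference -3.48), and none was at 0 in any library. Their summed level was 18.77 with exercise and SQH, 15.60 in the exercise control and 19.11 in the control. The 17 fast-fibre genes had a median difference of 0.42 in the exercise control against the control, and their summed levels in the 3 groups, in the same order, were 19.45, 20.09 and 19.69. All 5 tested of 9 Schwann cell markers were called higher in the exercise control against the control (median 1.85), with none at 0 and summed levels of 10.41, 12.12 and 10.34. The part of these shifts in the differences below was not tested. In bulk muscle, fewer cells or fibres of a type cannot be told apart from less RNA per cell.

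In the exercise control against the control, Pygm and Phkb were the 2 members called higher, where 2.95% of all tested rows were, and no member was called lower, where 5.33% of tested rows were. The 4 breakdown members differed by 0.60 to 1.23, of which Phka1 (0.87) and Phkg1 (0.60) did not reach the 2-fold mark, and the 3 synthesis members differed by -0.41 to 0.01. The median over the 9 members was 0.60, against -0.04 over all tested rows. The count rests on the exercise control library, with no second library of that group, and on the scaling between libraries. Scaled by the median level of the fast-fibre genes, no member was called higher (Pygm 0.54, Phkb 0.75), where 0.738% of tested rows were. Ppp1r3c was then called lower (-1.25), where 17.6% of tested rows were. The member median was 0.12 under this scaling, against -0.52 over all tested rows.

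**Figure D1:**
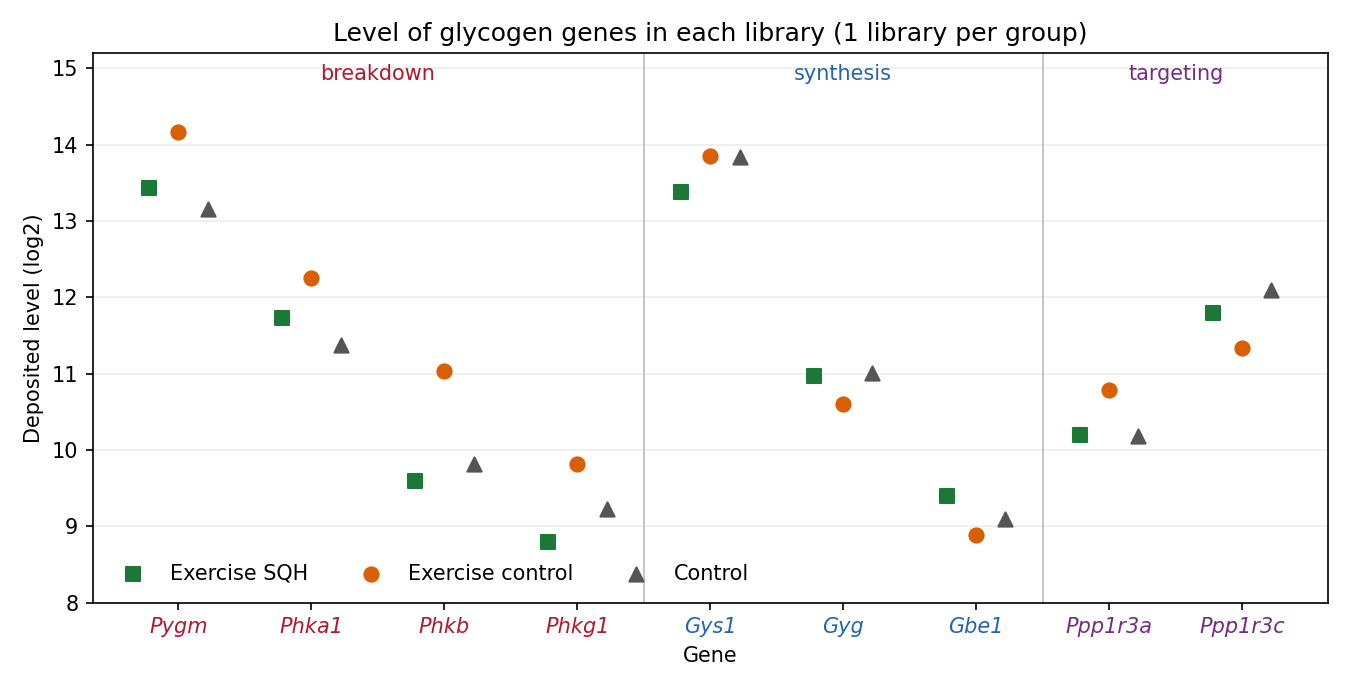
Deposited log2 level of the 9 glycogen genes, 1 point per library, with exercise SQH as squares, exercise control as circles and control as triangles. The 4 breakdown genes have their highest point in the exercise control, and Gyg, Gbe1 and Ppp1r3c have their lowest there. Pygm lies above Gys1 in both exercise libraries, by only 0.05 with SQH, and below it in the control.

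Pygm, the muscle isoform of glycogen phosphorylase, is annotated on chromosome 19 from 6384399 to 6398459 (plus strand, GENCODE M21 on GRCm38, the assembly called mm10). It stood at 13.43 with exercise and SQH, 14.17 in the exercise control and 13.15 in the control, or about 14428, 15494 and 9694 reads in that order. The control library was the lowest of the 3 and the exercise control the highest. The difference of the exercise control from the control was 1.02 ± 0.02, and 2.77% of tested rows had one at least as high. Exercise with SQH lay between them, at -0.74 ± 0.02 against the exercise control and 0.28 ± 0.02 against the control. Pygm lay barely past the 2-fold mark, and its standard error covers counting only.

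The kinase subunit genes did not move by equal amounts. Phka1, the muscle alpha subunit gene (chromosome X, 102513975 to 102644246, minus strand), stood at 11.73 with exercise and SQH, 12.25 in the exercise control and 11.38 in the control. Its order of libraries was that of Pygm, with a difference of 0.87 ± 0.04 between exercise control and control, short of a call. Phkb, the beta subunit gene (chromosome 8, 85840959 to 86061376, plus strand), stood at 9.59, 11.03 and 9.81 in the same order of groups. The exercise control alone was high here, and exercise with SQH differed from the control by -0.22 ± 0.07. Phkb differed by 1.23 ± 0.06 in the exercise control against the control and by -1.45 ± 0.06 in exercise with SQH against the exercise control. Of all tested rows, 1.58% were at least as high in the first comparison and 0.509% at least as low in the second. These comparisons share the exercise control library, so a value high in that library enters both.

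Phkg1, which encodes the catalytic gamma subunit of muscle (chromosome 5, 129863421 to 129898549, minus strand), was the least abundant of the breakdown members. Its level was 8.80 with exercise and SQH, 9.81 in the exercise control and 9.22 in the control. It differed by 0.60 ± 0.08 in the exercise control against the control and by -1.01 ± 0.08 in exercise with SQH against the exercise control, where it was called lower. That call lay at the threshold: the difference became -0.99 with 10 added to the linear values or with libraries scaled to equal sums, and -0.80 with libraries scaled by the fast-fibre median level. The last 630 exonic bases of Phkg1 are shared with Sumf2, a gene of the opposite strand that ends tail to tail with it. Counted from the annotated 3' end of Phkg1 into that gene, the annotated ends of the Sumf2 last exon lie at -623, 11 and 629 bases, so the longest form alone spans the shared stretch, and which ends are used was not measured. Sumf2 stood at 7.64, 7.99 and 7.87 in the 3 groups, and differed by 0.12 ± 0.13 in the exercise control against the control and by -0.35 ± 0.13 with SQH against the exercise control. How reads were assigned by strand is not given in the sources used here, so reads of Phkg1 and Sumf2 in the shared stretch cannot be told apart. Phkg1 exceeded Sumf2 by 2.23-fold with exercise and SQH, 3.53-fold in the exercise control and 2.53-fold in the control.

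**Figure D2:**
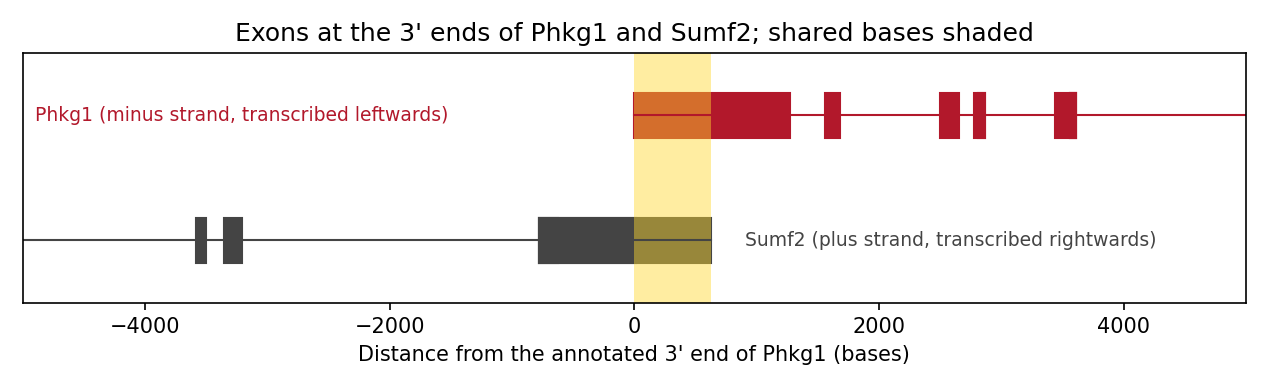
Annotated exons (boxes) of Phkg1 and Sumf2 around the 3' end of Phkg1, on an axis of distance from it in bases, with the shared stretch shaded. The 630 shared bases are the outermost annotated 3' bases of Phkg1 and of the longest Sumf2 form, while the shorter Sumf2 forms end at -623 and 11 bases.

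The 3 kinase subunit levels changed relative to each other. Such a ratio is taken within a library, so a single scaling factor per library does not change it. Phka1 exceeded Phkb by 4.43-fold with exercise and SQH, 2.32-fold in the exercise control and 2.97-fold in the control. The change of this ratio on the log2 scale was 0.93 ± 0.07 between exercise with SQH and the exercise control, and 0.58 ± 0.07 between exercise with SQH and the control. Phka1 over Phkg1 was 7.63, 5.42 and 4.48 in the 3 groups, so both exercise libraries lay above the control. Liver-type paralogues were scarce: Phka2 had 60, 27 and 37 reads in the 3 groups, below the level minimum, and Phkg2 stood at 5.98, 6.71 and 6.46. Phkg1 exceeded Phkg2 by 6.74-fold to 8.58-fold over the libraries.

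Phosphorylase paralogues of brain and liver, Pygb and Pygl, lay far below Pygm. Pygb stood at 6.68 with exercise and SQH, 5.95 in the exercise control and 6.37 in the control, on 134, 52 and 88 reads. Its lowest value was in the exercise control, in which Pygm was highest. The difference of Pygb between exercise control and control was -0.42 ± 0.25, within counting error, so their order is not resolved. Exercise with SQH lay above the exercise control by 0.73 ± 0.24. Pygl stood at 5.04, 4.89 and 5.37, below the level minimum, with 25 to 44 reads.

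Among the synthesis genes, Gys1 had its lowest level with SQH. Gys1, the muscle glycogen synthase gene (chromosome 7, 45434844 to 45456619, plus strand), stood at 13.38 with exercise and SQH, 13.85 in the exercise control and 13.84 in the control. The exercise control and the control differed by 0.01 ± 0.02, within counting error. Exercise with SQH lay at -0.47 ± 0.02 against the exercise control and -0.46 ± 0.02 against the control. Neither difference reached the 2-fold mark, and 11.0% of tested rows were at least as low against the control. Gys1 shares 310 exonic bases with Ruvbl2 of the opposite strand, but those bases lie 20068 or more from the annotated 3' end of Gys1, and Ruvbl2 had 5 to 7 reads per library. The liver synthase gene Gys2 was listed at 0 in all 3 libraries.

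Gyg and Gbe1 were lowest in the exercise control. Gyg, whose protein primes new glycogen particles (chromosome 3, 20122084 to 20155317, minus strand), stood at 10.97 with exercise and SQH, 10.60 in the exercise control and 11.01 in the control. It differed by -0.41 ± 0.05 in the exercise control against the control and by 0.37 ± 0.05 with SQH against the exercise control. The SQH and control libraries differed by -0.04 ± 0.04, within counting error. Gbe1, the branching enzyme gene (chromosome 16, 70313949 to 70569716, plus strand), stood at 9.39, 8.88 and 9.09 in the 3 groups, on 878, 397 and 580 reads. The library with SQH was the highest, by 0.51 ± 0.09 over the exercise control and 0.31 ± 0.08 over the control. No synthesis gene was called in any comparison on the deposited scale.

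The 2 targeting subunit genes went opposite ways without reaching a call. Ppp1r3a, which encodes the muscle subunit also called GM (chromosome 6, 14713977 to 14755274, minus strand), stood at 10.19 with exercise and SQH, 10.79 in the exercise control and 10.18 in the control. The exercise control was the high library, by 0.61 ± 0.06 over the control, and exercise with SQH differed from the control by 0.01 ± 0.06. Ppp1r3c, whose protein is also called PTG (chromosome 19, 36731731 to 36736653, minus strand), stood at 11.79, 11.33 and 12.10 in the same order. Here the exercise control was the low library, at -0.78 ± 0.04 against the control, and exercise with SQH lay at 0.47 ± 0.04 against the exercise control. Ppp1r3c exceeded Ppp1r3a by 3.04-fold with exercise and SQH, 1.45-fold in the exercise control and 3.79-fold in the control. The log2 ratio differed by -1.39 ± 0.07 between exercise control and control, and by 1.07 ± 0.06 between exercise with SQH and the exercise control.

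Other targeting subunit genes were scarce. Ppp1r3b stood at 6.45 with exercise and SQH, 4.84 in the exercise control and 6.25 in the control, and Ppp1r3d at 5.97, 5.11 and 6.28. Both were lowest in the exercise control, at -1.41 ± 0.34 and -1.18 ± 0.31 against the control, on 24 and 29 reads there, and both lay below the level minimum. Ppp1r3f was at 5.03, 4.05 and 3.91, Ppp1r3e was listed at 0 in all 3 libraries, and Ppp1r3g was above 0 only with SQH, at 2.86 or about 10 reads.

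In exercise with SQH against the exercise control, Phkb and Phkg1 were the 2 members called lower, where 2.33% of all tested rows were, and no member was called higher, where 5.68% were. The 4 breakdown members differed by -1.45 to -0.52, of which Pygm (-0.74) and Phka1 (-0.52) did not reach the 2-fold mark. Of the 3 synthesis members, Gys1 was below 0 and Gyg and Gbe1 above. The median over the 9 members was -0.52, against 0.03 over all tested rows. The slow-fibre list had a median difference of 3.22 between the same libraries, the fast-fibre list -0.75 and the Schwann cell list -1.79. Both calls depended on the scaling, Phkg1 more than Phkb. Phkb was still called when scaled by the fast-fibre median level (-1.24) or to equal sums (-1.42), and Phkg1 was not (-0.80 and -0.99). With libraries shifted by the median difference of the fast-fibre genes, an alternative chosen after seeing the data, Phkb lay at -0.81 and Phkg1 at -0.38. No member was then called lower, where 0.28% of tested rows were. Gbe1 (1.15), Ppp1r3c (1.10) and, at the threshold, Gyg were called higher, as were 24.8% of tested rows. Phka1 (0.12), Gys1 (0.17) and Ppp1r3a (0.03) then lay above 0.

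**Figure D3:**
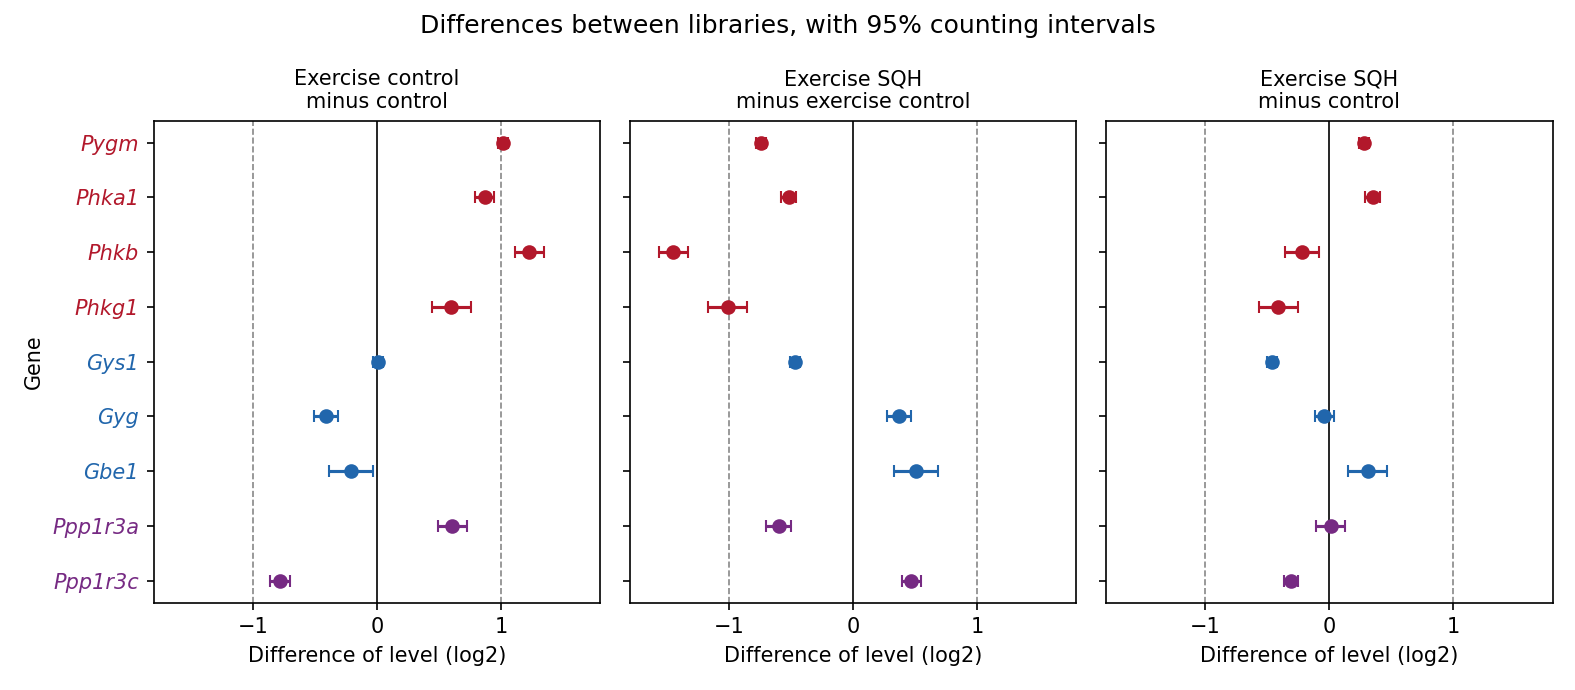
Difference of the log2 level for the 9 glycogen genes in each comparison, with bars for the 95% counting interval and dashed lines at 2-fold. In the first panel the breakdown genes lie at 0.60 or above and the synthesis genes at 0.01 or below, and in the third panel every gene lies between -0.46 and 0.35.

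The differences of the remaining comparison, exercise with SQH against the control, do not use the exercise control library. The level minimum that sets the tested rows does, as it averages all 3 libraries. No member was called higher, where 1.76% of tested rows were, and none was called lower, where 1.26% were. The 9 differences ran from -0.46 (Gys1) to 0.35 (Phka1), and their median of -0.04 stood beside -0.02 over all tested rows. Within breakdown, Pygm and Phka1 lay above the control and Phkb and Phkg1 below it. At a 1.5-fold mark there was still no call among the members in this comparison, where 7.41% of tested rows were called higher and 6.36% lower.

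**Figure D4:**
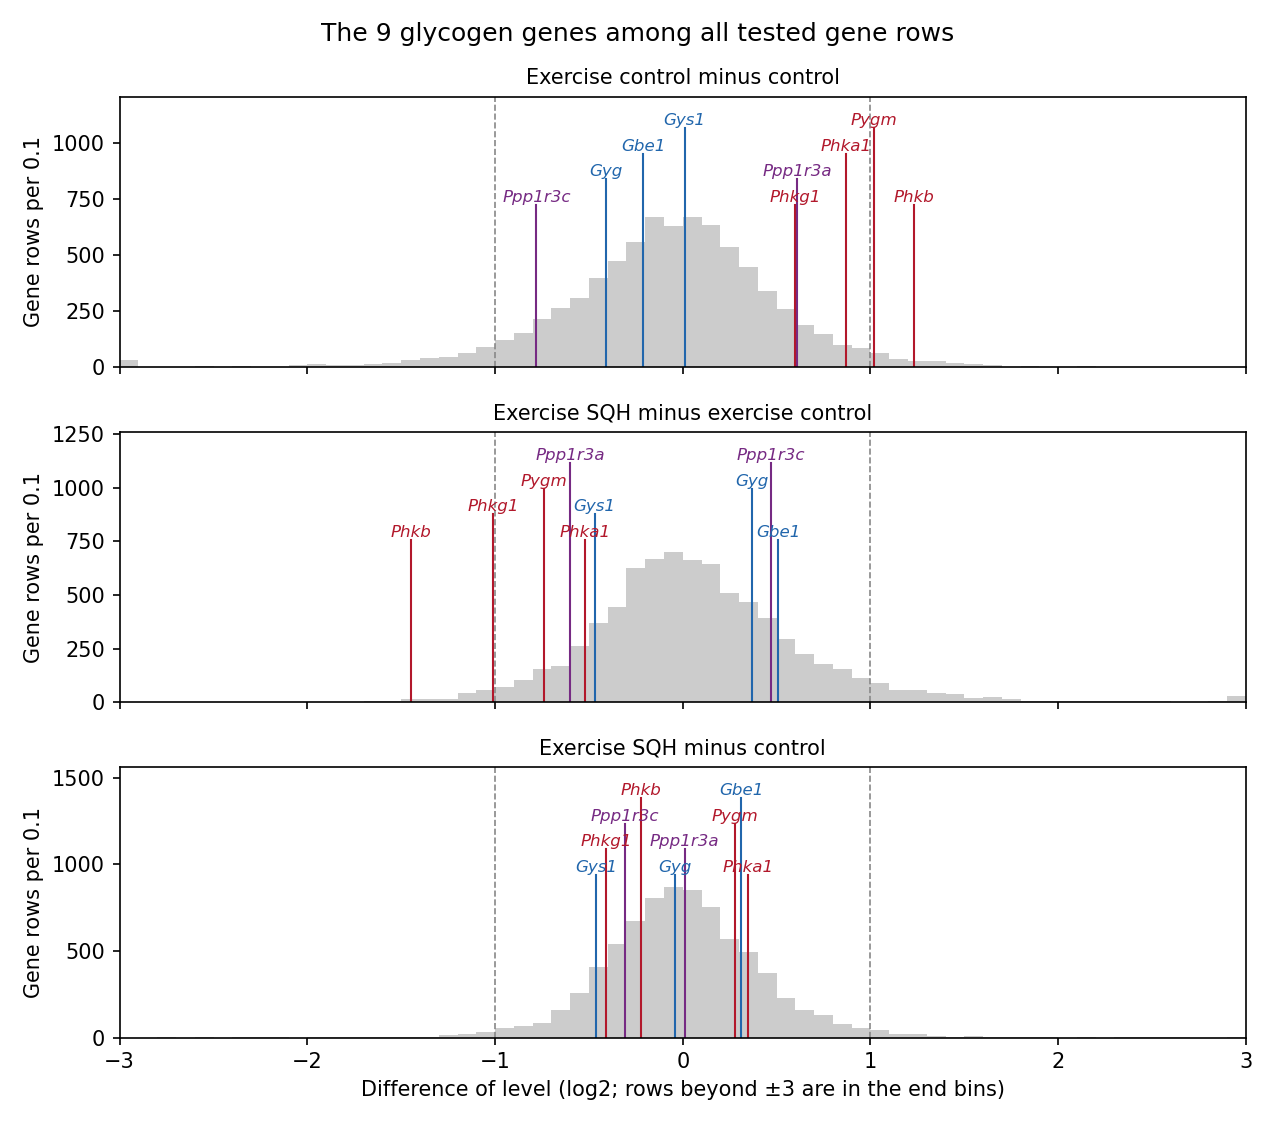
Histogram of log2 differences for the 7857 tested gene rows (grey, rows per 0.1 unit) in each comparison, with a line at the value of each of the 9 members, coloured by role. Phkb lies in the tail beyond 2-fold in the upper and middle panels, on opposite sides, and all 9 members lie inside 2-fold in the lower panel.

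The order of Pygm and Gys1 was not the same in the exercise libraries and the control. Pygm exceeded Gys1 by 1.03-fold with exercise and SQH and by 1.25-fold in the exercise control, and its ratio to Gys1 was 0.619 in the control. With exercise and SQH the levels were close to even, at a log2 ratio of 0.05 ± 0.02. The log2 ratio differed from that of the control by 0.74 ± 0.03 with exercise and SQH and by 1.01 ± 0.03 in the exercise control. Pygm and Gys1 each had 9694 or more reads in every library, so counting error is small beside these shifts, while variation between animals was not measured. Summed over roles, the 4 breakdown members made 1.17 times the level of the 3 synthesis members with exercise and SQH. This ratio was 1.56 in the exercise control and 0.765 in the control. Pygm and Gys1 are the largest terms of these sums in every library, so the summed ratio largely repeats that of Pygm over Gys1. The summed kinase subunit levels were 0.418, 0.427 and 0.456 of the Pygm level in the same order of groups.

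**Figure D5:**
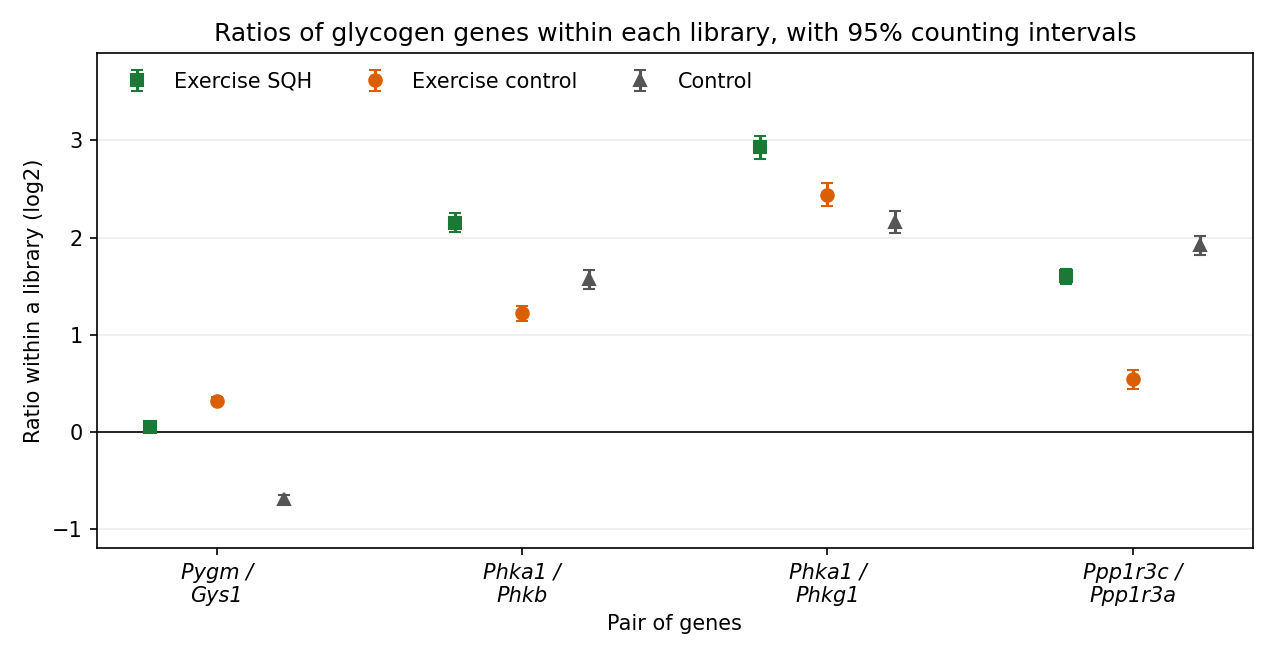
Log2 ratio of 4 pairs of glycogen genes within each library, with 95% counting intervals, for exercise SQH (squares), exercise control (circles) and control (triangles). Pygm over Gys1 lies above 0 in both exercise libraries, at only 0.05 with SQH, and at -0.69 in the control. Ppp1r3c over Ppp1r3a is lowest in the exercise control at 0.54.

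Gbe1 and Phkg1 were neighbours in the order of levels in the control and lay within counting error of each other there (a gap of 0.13 ± 0.08). Every other pair of neighbours among the 9 differed beyond counting error in its library. Across the 3 libraries, the most alike pair of members was Pygm and Phka1, at a distance of 0.157 log2 units between their centred values. The least alike pair was Phkb and Ppp1r3c, at 1.60. Such distances rest on 3 libraries and are a description.

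The promoters of 4 members are printed as examples: Pygm, Phka1 and Ppp1r3a from the members with their highest level in the exercise control, and Ppp1r3c from those with their lowest level there. Phkb and Phkg1 also had their highest level in that library and Gyg and Gbe1 their lowest, and their promoters are not printed. That of Gys1, whose levels in the exercise control and the control lay within counting error, is not printed either. The printed promoters are RefSeq sequences of GRCm38.p6, cut to the bases before the start that no annotated exon covers. Pygm is shown for chr19:6384158-6384398, plus strand; Phka1 for chrX:102644247-102644496, minus strand; Ppp1r3a for chr6:14755275-14755524, minus strand; and Ppp1r3c for chr19:36736654-36736854, minus strand. Capitals mark E-boxes (CANNTG, the site read by MyoD-family and related factors) and, in Ppp1r3a alone, a match to MEF2, a site of muscle transcription factors.
Pygm: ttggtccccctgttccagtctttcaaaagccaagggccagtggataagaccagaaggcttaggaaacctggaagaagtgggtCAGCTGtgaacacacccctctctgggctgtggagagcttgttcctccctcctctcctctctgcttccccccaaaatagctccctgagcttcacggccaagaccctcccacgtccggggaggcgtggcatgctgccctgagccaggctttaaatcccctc
Phka1: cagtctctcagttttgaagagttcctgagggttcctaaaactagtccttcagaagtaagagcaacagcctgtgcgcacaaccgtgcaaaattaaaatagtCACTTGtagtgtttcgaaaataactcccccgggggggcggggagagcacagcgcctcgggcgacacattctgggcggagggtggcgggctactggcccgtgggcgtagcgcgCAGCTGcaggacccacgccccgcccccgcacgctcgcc
Ppp1r3a: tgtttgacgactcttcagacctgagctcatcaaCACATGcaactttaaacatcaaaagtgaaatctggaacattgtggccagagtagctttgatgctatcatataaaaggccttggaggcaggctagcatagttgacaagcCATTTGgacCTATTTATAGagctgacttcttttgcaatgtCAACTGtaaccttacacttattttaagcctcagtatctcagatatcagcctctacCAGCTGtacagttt
Ppp1r3c: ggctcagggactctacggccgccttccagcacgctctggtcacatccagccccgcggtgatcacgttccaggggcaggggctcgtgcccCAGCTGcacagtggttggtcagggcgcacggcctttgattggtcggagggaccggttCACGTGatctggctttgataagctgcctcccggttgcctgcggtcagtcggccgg

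Over the 250 bases before the start, on both strands, an E-box was found in 8 of the 9 members, the exception being Phkb, and in 66.2% of all 32851 promoters of that length. The MEF2 match was found in Ppp1r3a, 100 bases before the start, and in 2.9% of all promoters. CACGTG, a form of the E-box and so counted in both searches, was found in Ppp1r3c, and in 6.0% of all promoters. TGACG, the core of the cyclic AMP response element, was found in Phkb and Ppp1r3a, and in 17.8% of all promoters. AAGGTCA, the core of the site for estrogen-related receptors, was found in no member and in 4.1% of all promoters. These are matches of letters in a short window.

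Of the 36 other glycogen-related genes, 24 passed the level minimum. In the exercise control against the control, 1 was called higher and none lower, where 2.95% and 5.33% of all tested rows were. The list's median there was 0.24, against -0.04 over all tested rows. Exercise with SQH gave no call in either direction. Against the exercise control, 5.68% of all tested rows were higher and 2.33% lower, and the list's median was -0.18, against 0.03. Against the control, 1.76% were higher and 1.26% lower, and the list's median was -0.01, against -0.02. Ppp1cc, a catalytic subunit gene of protein phosphatase 1, stood at 7.60 with exercise and SQH, 8.48 in the exercise control and 7.41 in the control. It was called higher in the exercise control against the control (1.07 ± 0.14), while Ppp1ca (-0.13) and Ppp1cb (0.06) were not called there.

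Patterns were compared with 7518 other genes past the minimum, leaving out symbols on several rows and those of clones, gene models and small RNAs. The patterns nearest to Phkb over the 3 libraries were those of Il15 (distance 0.0542), Apbb3 (0.0593) and Zfp110 (0.0823). Within a distance of 0.2 of Phkb lay 15 genes, against 135 for Pygm and 124 for Phkg1. The nearest to Pygm were Slc7a2, Cdpf1 and Arsk, and the nearest to Phkg1 were Bak1, Psmg4 and Rnf122. The differences of Il15, Apbb3 and Zfp110 had counting errors of 0.20 to 0.28, larger than their distances from Phkb, so their order is not resolved. Those of the genes nearest to Pygm and Phkg1 had counting errors of 0.07 to 0.22, also larger than their distances (0.00356 to 0.041), so these orders are not resolved either. Il15 reached the minimum of 66.5 in the exercise control library alone, and Cdpf1, Apbb3 and Zfp110 reached it in 2 of 3 libraries. Likeness here is the Euclidean distance between log2 values centred on each gene's mean.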

How the data were processed

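Total RNA (500 ng) of skeletal muscle was made into Lexogen QuantSeq 3' libraries, per the labels' protocols. Bowtie2, edgeR and mm10 appear in the submitters' processing notes, with no version or role. How reads were counted, annotated, assigned to strands and scaled is not stated there. The authors deposited 1 log2 value per gene and library, per the file headers under a sample code only. That these log2 values are library-size-adjusted reads was read from their low range: linear values bunched at multiples of 0.766 (exercise SQH), 1.188 (exercise control) and 0.939 (control), and 84.4%, 95.7% and 100.0% of those between 1 and 9 lay within 0.2 step of a multiple. Reads are therefore approximate, and no count model was fitted.

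Differences are of deposited log2 values. With 1 library per group no test was made. The minimum of 66.5 is the median of mean linear values over the 15714 rows above 0 in any library. Counting errors are those of a ratio of 2 Poisson counts, cover counting only, and 95% intervals are 1.96 of them. The call rule and the step search were tested on simulated data. Those data held counting error and set fold changes only, so they cannot show how animals or libraries vary. Members, lists and rules were chosen with earlier results of these data known. Values of some genes of the wider list are not reported here. Named were the 9 members, their paralogues, called genes of the wider list, genes sharing exonic bases with a member, and for each called member the 3 nearest patterns. Of the symbols, 95.7% were found in GENCODE M21. Python 3.11.15, numpy 2.4.6, pandas 2.3.3 and scipy 1.17.1 were used. Alternatives were 5 scalings (2 of them, to equal sums and by the median fast-fibre difference, chosen after seeing the data), 2 pseudocounts, 3 level minimums (1 chosen after seeing the data) and 2 fold thresholds.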

Additional observations from a re-analysis of the deposited data

How the results depend on the processing

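No paired analysis was possible because each group has 1 library. Centring on the library median, quantile normalization and a pseudocount of 1 changed no call among the 9 members, and neither did any level minimum tried. Scaling by the fast-fibre genes changed most, and the choice of summary mattered. Their median level lies 0.26 above the control with exercise and SQH and 0.47 above it in the exercise control, although 13 of the 17 genes lay below the control with SQH (median difference -0.25). Under this scaling the member medians became 0.12 for exercise control against control (-0.52 over all tested rows), -0.31 for exercise with SQH against exercise control (0.23) and -0.31 for exercise with SQH against control (-0.28). In the first comparison Pygm (0.54) and Phkb (0.75) were no longer called, leaving 0 higher, and Ppp1r3c (-1.25) made 1 lower. Of tested rows, 0.738% were higher and 17.6% lower there. In the second, Phkb (-1.24) was still called and Phkg1 (-0.80) was not, leaving 1 lower, where 0.993% of tested rows were. Shifting each library instead by the median of the genes' own differences, chosen after seeing the data, put exercise with SQH 0.19 below the control and the exercise control 0.44 above it. The member medians became 0.15, 0.12 and 0.15 in the 3 comparisons (-0.49, 0.66 and 0.17 over all tested rows). The first then had 0 members higher and 1 lower (Ppp1r3c, -1.22), where 0.802% and 16.6% of tested rows were. The second had 3 higher and 0 lower (Phkb -0.81), where 24.8% and 0.28% of tested rows were. The third had none, where 3.37% were higher and 0.598% lower. A pseudocount of 10, and scaling to equal linear sums, left 1 lower in the second comparison, where 1.67% and 2.11% of tested rows were. Equal sums gave a median of 0.05 for exercise with SQH against control. At 1.5-fold, 5 members were called higher and 1 called lower in exercise control against control, where 10.1% and 15.5% of tested rows were. With SQH against the exercise control 4 were lower, where 9.28% of tested rows were. At 3-fold, 0 were called in both. Of tested rows, 0.535% were then higher and 1.59% lower in the first comparison, and 1.73% higher and 0.293% lower in the second. Signs changed in 9 of 189 single differences, all of members not called in that comparison on the deposited scale: Gys1 in the exercise control against the control (-0.47) and Ppp1r3a with SQH against the control (-0.25) under the fast-fibre median level, Gys1 in the exercise control against the control (-0.44), Phka1 (0.12), Gys1 (0.17) and Ppp1r3a (0.03) with SQH against the exercise control and Gyg with SQH against the control (0.15) under the median fast-fibre difference, and Gyg with SQH against the control under quantile normalization (0.01) and equal sums (0.05). Depth limits the scarce paralogues, and the design leaves variation between animals unmeasured.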
